A study of Mus musculus with 8 samples.

Results

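The loci described here are stretches of the mouse genome where RNA was assembled from sequencing reads but no gene name was attached. Of the 39330 loci in the deposited table, 28408 carried a gene name and 10922 did not. A locus was kept when it had no gene name, its estimate had the status OK in all 8 libraries, it spanned 200 bp or more, and it reached 1 FPKM (fragments per kilobase of transcript, scaled to sequencing depth) in at least 2 libraries. This left 3051 unnamed loci, against 18839 named loci that passed the same status and FPKM criteria. Of the others, 119 had a status other than OK in some library, 815 with status OK were shorter than 200 bp, and 6937 of sufficient length stayed below the FPKM criterion.

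The libraries held RNA of Gr-1+ cells, a myeloid population rich in neutrophils and monocytes, taken from skin wounds or from bone marrow with magnetic beads. The 4 groups were diabetic wound, nondiabetic wound, diabetic marrow and nondiabetic marrow, with 2 libraries each, each made from the pooled cells of 5 mice. Diabetic mice were homozygous (Lepr -/-) and nondiabetic mice heterozygous (Lepr +/-) for a mutation in the leptin receptor, all on C57BL/6, aged 8 to 16 weeks, of both sexes and sex-matched. Every mouse received 2 excisional wounds of 8 mm on the back, and wound cells were collected on day 3 after enzymatic dissociation of the wound with a rim of skin, so the marrow also came from wounded animals and the nondiabetic mice also carried 1 mutant allele. The p-values below measure the spread between pools, not between mice.

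RNA outside annotated genes has several well-known sources. Processed pseudogenes, or retrocopies, are spliced messenger RNAs that were copied back into the genome and therefore lack introns. Transcription can also begin upstream of a promoter or run past the end of a gene, and interspersed repeats can be transcribed from many places at once.

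The sequences of a few of these loci show the kinds that were met. The first 3 pairs set an unnamed locus beside the coding transcript it resembles, read 5′ to 3′ along the transcript, with the bases that differ in capitals. All of each printed stretch lies in the coding part of the gene and runs across a joint between exons, which in the genome are separated by introns. Of the stretches of 90 bases that met this, the one with the most differences is shown. Over the whole match, identity was 98.1% for Clic4, 95.5% for Cap1 and 98.3% for Fdps. The locus stretches are chr3:62977151-62977240, chr14:41107661-41107750 and chr6:6685951-6686040, all on the minus strand of mm9. The transcript stretches are from GENCODE vM1.
chr3 copy of Clic4: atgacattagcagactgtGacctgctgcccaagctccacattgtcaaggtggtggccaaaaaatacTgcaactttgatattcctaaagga
Clic4 transcript: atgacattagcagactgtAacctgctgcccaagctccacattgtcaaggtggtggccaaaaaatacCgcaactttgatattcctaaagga
chr14 copy of Cap1: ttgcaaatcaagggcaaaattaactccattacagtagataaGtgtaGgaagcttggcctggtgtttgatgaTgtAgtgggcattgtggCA
Cap1 transcript: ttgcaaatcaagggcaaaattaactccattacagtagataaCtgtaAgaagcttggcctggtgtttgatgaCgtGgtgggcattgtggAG
chr6 copy of Fdps: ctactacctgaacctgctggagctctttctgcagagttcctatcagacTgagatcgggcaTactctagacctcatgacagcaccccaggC
Fdps transcript: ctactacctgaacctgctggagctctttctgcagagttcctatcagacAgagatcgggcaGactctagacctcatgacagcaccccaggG
Over the 90 bases shown, the Clic4 pair differed at 2, the Cap1 pair at 6 and the Fdps pair at 3 positions, and the exon joint lay after base 48, 37 and 34 of the printed run.

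The next pair shows the first 140 bases of 2 loci built of a short tandem repeat, on the plus strand at chr8:48190750-48190889 and chr12:75985162-75985301. Capitals mark the unit GGAT in the first and its reverse complement ATCC in the second, and both loci were lower in diabetic mice, as described below.
chr8 locus near Stox2: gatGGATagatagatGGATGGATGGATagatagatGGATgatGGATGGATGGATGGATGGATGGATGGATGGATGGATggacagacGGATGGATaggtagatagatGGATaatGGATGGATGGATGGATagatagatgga
chr12 locus near Rhoj: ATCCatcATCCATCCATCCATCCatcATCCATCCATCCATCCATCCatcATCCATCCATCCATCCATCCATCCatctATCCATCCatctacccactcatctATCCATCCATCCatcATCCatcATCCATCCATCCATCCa
The last sequence is the gene-facing end, chr6:54766527-54766706 on the plus strand, of a locus just upstream of Znrf2, which matched no coding transcript and in which every 50-base word occurred once in the genome.
chr6 locus near Znrf2: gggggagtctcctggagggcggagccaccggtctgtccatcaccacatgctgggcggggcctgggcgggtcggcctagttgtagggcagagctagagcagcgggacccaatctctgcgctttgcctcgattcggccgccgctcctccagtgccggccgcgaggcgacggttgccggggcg

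The unnamed loci were mostly low, short and outside annotated genes. Their median level, as the mean FPKM over the 8 libraries, was 1.03, against 3.99 for the named loci tested. A mean of 10 FPKM or more was reached by 324 unnamed loci (10.6%), against 30.4% of the named loci, and 5 unnamed loci exceeded 1000 FPKM. The loci were chosen by their FPKM values, so these levels are a description. Just inside the FPKM criterion, the second-highest library read 1, 1.001 and 1.001 FPKM in the nearest 3 loci, and just outside it read 0.9999, 0.9998 and 0.9994 FPKM. Lengths ran from 200 to 580612 bp with a median of 1122 bp, and 2 loci of 199 bp that met the other criteria fell just outside. In GENCODE vM1, 2730 of the loci (89.5%) overlapped no annotated gene on either strand and 321 overlapped an exon.

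Distances to the nearest named locus ranged widely. Of the 3051 loci, 322 (10.6%) shared or overlapped the interval of a named locus, 910 (29.8%) lay 1 to 5000 bp from the nearest named locus, 1116 (36.6%) lay over 5000 and up to 50000 bp away and 703 (23.0%) lay farther. Among the 6937 unnamed loci below the FPKM criterion, 37.0% lay 1 to 5000 bp away and 16.0% farther than 50000 bp. The most distant of the 3051 was chrX:30547076-30547595, 2881106 bp from Dock11. Intervals in the table are assembly bundles and can hold several loci: the 3051 loci occupied 2670 distinct intervals, and 562 shared theirs with another unnamed locus, so neighbouring loci are not independent. Within 10000 bp of each other, 1708 loci formed 571 clusters.

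The number per chromosome followed the number of named loci only loosely. Chromosome 19 held 26.9 unnamed loci per 100 named loci tested, chromosome 13 held 23.4 and chromosome 10 held 23.1. Chromosome X held 6.12 and chromosome 11 held 8.59. On chromosome 19, 28 of the 166 loci came from a single interval near Gda, described below.

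Where a locus lay close to a coding gene without overlapping any annotated gene, it was nearly always on the upstream side. Within 1000 bp of the nearest coding gene, 223 loci lay upstream of its 5′ end and 14 downstream of its 3′ end (94.1% upstream). The share was 97% among the unnamed loci below the FPKM criterion (491 upstream, 15 downstream), so the side was not particular to the loci described here. Over 1000 and up to 5000 bp away, 226 loci lay upstream and 237 downstream, leaving out copies of coding transcripts.

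A large minority of the loci that could be searched was near-identical to a messenger RNA encoded elsewhere. Among 2130 loci of 5000 bp or less, 484 (22.7%) matched a coding transcript of a gene at another place over at least 50% of the locus with at least 90% identity. They are called copies below. They resembled 373 genes, with a median identity of 96.3%. None of the 484 overlapped an annotated gene in GENCODE vM1, 452 lay on another chromosome than the gene, and 421 ran across at least 1 exon joint of the transcript, up to 18 joints. Copies had a median level of 9.35 FPKM, and the 1556 searched loci with no match had 0.810 FPKM. Of the 100 highest unnamed loci 85 were short enough to search, and 66 of these were copies. Of all 50-base words in a copy, a median of 85.4% occurred once in the genome, against 100% in the loci with no match. Words were counted in the genome and not in spliced transcripts. A word across an exon joint can therefore occur once there and still resemble the gene's RNA. How reads that fit a gene and its copy equally were counted is not given in the sources used here, so levels of copies are uncertain.

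Differences are given on the log2(FPKM + 1) scale with their standard error (SE), from limma fitted to all 22703 loci that passed the FPKM criterion, with p-values adjusted over all of them and a threshold of 0.05. This scale understates changes of low loci. The number of mapped reads is unknown, since only FPKM was deposited. The FPKM criterion itself favours loci that are high in 1 group: 1035 loci reached 1 FPKM in exactly 2 libraries, namely both pools of diabetic wound in 263, of nondiabetic wound in 204, of diabetic marrow in 245, of nondiabetic marrow in 101, and pools of different groups in 222. Counts of changed loci below are therefore descriptions of the set.

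Known cell markers set the context for every comparison. In these bulk samples, fewer cells of a type and less RNA per cell cannot be told apart. Over 14 tested markers of neutrophil granules and surface, summed FPKM was 569 to 856 in wound libraries and 22310 to 29257 in marrow libraries. The 10 keratinocyte markers summed to 720.3 and 700.0 FPKM in diabetic wound pools, 298 and 315 in nondiabetic wound pools and 21.1 to 27.3 in marrow pools, where Krt10, Krt1, Krt17 and Lgals7 were under 0.1 FPKM. The 6 tested erythroid markers summed to 14097 and 15137 FPKM in diabetic marrow, 6305 and 6341 in nondiabetic marrow and 27.65 to 51.45 in wound libraries. The part of these other cells in the differences below was not tested.

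Comparing wound with marrow in nondiabetic mice, 2238 unnamed loci differed, 1214 higher and 1024 lower in wound; over all loci tested, named and unnamed, 77.3% were called. In diabetic mice 2376 differed, 1219 higher and 1157 lower, against 79.7% of all loci. With a difference of at least 1, 1279 unnamed loci (41.9%) were called in nondiabetic mice, where 44.6% of all loci were called. In diabetic mice 1448 (47.5%) were called, where 47.5% of all loci were called. The median difference in nondiabetic mice was 0.11 for the unnamed loci and -0.27 for all loci, and median-ratio scaling of FPKM moved the median of all loci to 0.07 and that of the unnamed loci to 0.32.

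Unnamed loci high in wound cells included several beside genes of inflammation. At chr14:103462116-103462671, 2356 bp from Irg1, which encodes the enzyme that makes itaconate in activated macrophages, FPKM was 21.9 and 23.5 in diabetic wound, 19.7 and 19.4 in nondiabetic wound, 0.0678 and 0.121 in diabetic marrow and 0 and 0 in nondiabetic marrow. Wound and marrow pools did not overlap, and the difference in diabetic mice was 4.44 (SE 0.06, adjusted p = 1.56e-07). Irg1 itself had 414.5 and 408 FPKM in diabetic wound, 669 and 694.5 in nondiabetic wound, 5.46 and 4.36 in diabetic marrow and 6.68 and 6.32 in nondiabetic marrow. At chr12:56564795-56579212, 75 bp from Nfkbia, the gene of an inhibitor of NF-kB, FPKM was 5.58 and 5.97 in diabetic wound, 12.7 and 13.3 in nondiabetic wound, 0.507 and 0.767 in diabetic marrow and 0.257 and 0.397 in nondiabetic marrow. Wound exceeded marrow by 3.40 in nondiabetic mice (SE 0.10, adjusted p = 1.75e-06) and by 2.05 in diabetic mice (SE 0.10, adjusted p = 1.18e-05).

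From a list of 22 NF-kB and immediate early genes, 14 unnamed loci lay within 5000 bp of Ier3, Nfkbia, Nfkbiz, Nr4a1 or Tnfaip3. Of these, 13 were higher in wound in nondiabetic mice and 11 in diabetic mice, and none was lower; over all loci, 31.7% and 32.8% were called higher in these comparisons. Of all unnamed loci 7 share the interval of Ier3, so they are not 14 separate observations. Near 18 genes of neutrophil granules and surface there were 7 unnamed loci, all 7 lower in wound in nondiabetic mice and 4 in diabetic mice (45.7% and 46.9% of all loci called lower). At chr7:25549234-25551061, 3834 bp from Cd177, a neutrophil surface protein, FPKM was 0.00888 and 0 in diabetic wound, 0.0107 and 0 in nondiabetic wound, 8.64 and 8.34 in diabetic marrow and 9.20 and 11 in nondiabetic marrow.

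Marrow-high loci of the largest differences included loci on both sides of 1 gene. A pair of them flanks Degs1, which encodes a desaturase of ceramide synthesis. At chr1:184215986-184233864, 151 bp from Degs1, FPKM was 0.867 and 1.41 in diabetic wound, 2.43 and 2.64 in nondiabetic wound, 177 and 182 in diabetic marrow and 144 and 155 in nondiabetic marrow. At chr1:184185102-184199923, on its other side, FPKM was 0.743 and 0.8825 in diabetic wound, 2.33 and 2.45 in nondiabetic wound, 122.5 and 125 in diabetic marrow and 137 and 151 in nondiabetic marrow. Wound was lower than marrow in nondiabetic mice by -5.41 (SE 0.12, adjusted p = 7.42e-07) and -5.42 (SE 0.06, adjusted p = 1.66e-07). Degs1 itself moved less: it had 31.5 and 32.4 FPKM in diabetic wound, 19.96 and 20.4 in nondiabetic wound, 116 and 120.3 in diabetic marrow and 116 and 118 in nondiabetic marrow. A locus 46141 bp from Adamts2, at chr11:50356788-50370708, was nearly silent in wound, with at most 0.0966 FPKM in any wound pool, against 21.7 and 22.3 FPKM in diabetic marrow and 27.6 and 29.2 in nondiabetic marrow.

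Unnamed loci often moved with the named locus beside them, and less often so with distance. Among unnamed loci called between wound and marrow in nondiabetic mice, the nearest tested named locus was called in the same direction in 80.4% where the interval was shared, 75.6% at 1 to 5000 bp, 61.7% at over 5000 and up to 50000 bp and 51.7% farther away. For named loci and their nearest named neighbours, the shares were 66.0%, 60.6%, 51.0% and 42.8%. Over the pairs of unnamed and named loci, Pearson's r of the 2 differences was 0.66, 0.60, 0.31 and 0.16 in the same order of distance (312, 815, 1095 and 829 pairs, all from the same 8 libraries). The decline was not seen for diabetes in marrow, where the share was 26% in shared intervals and 44.6% at 1 to 5000 bp.

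**Figure D1:**
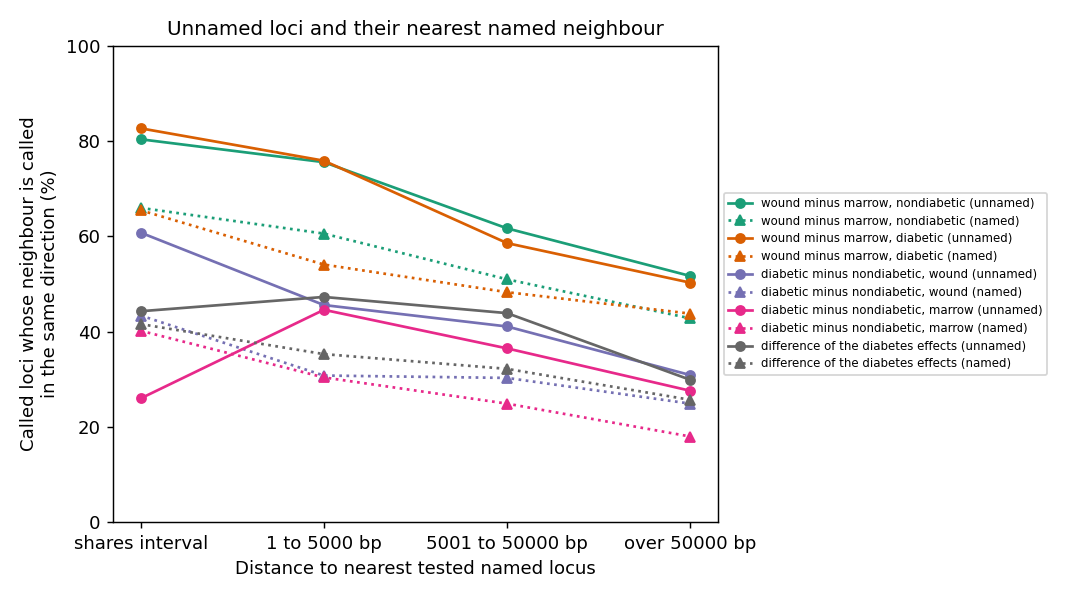
Share of called loci (y axis, percent) whose nearest tested named locus is called in the same direction, by distance class (x axis), for unnamed loci (circles, solid lines) and named loci (triangles, dotted lines) in 5 comparisons. For wound minus marrow in nondiabetic mice the unnamed loci decline from 80.4% to 51.7% with distance, and the marrow diabetes line starts at 26%.

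Copies behaved like the gene they resemble and not like their surroundings. For 425 copies the gene also had a tested locus. Of 302 such copies called between wound and marrow in nondiabetic mice, the gene was called in the same direction in 273, in the opposite direction in 6 and not called in 23. The nearest named locus was called in the same direction in 133 and in the opposite direction in 129. Over the 425 pairs, which share libraries and may share reads, Pearson's r of the differences was 0.89 with the gene and -0.04 with the nearest named locus. For diabetes in wound r with the gene was 0.36, and for diabetes in marrow 0.44. Copies were called lower in wound more often than higher: 265 lower and 83 higher in nondiabetic mice, and 233 lower and 119 higher in diabetic mice. The loci with no match had 404 lower and 698 higher in nondiabetic mice, and 489 lower and 693 higher in diabetic mice. Over all loci tested, calls also leaned lower in wound: 46.9% lower and 32.8% higher for the diabetic genotype, 45.7% and 31.7% for the nondiabetic one.

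The copy of Clic4, a chloride intracellular channel protein, at chr3:62977031-62977240 gave 169.6 and 186 FPKM in diabetic wound, 259 and 290.2 in nondiabetic wound, 8.54 and 12.8 in diabetic marrow and 13.6 and 16.5 in nondiabetic marrow. Clic4 on chromosome 4 gave 152 and 148 FPKM in diabetic wound, 172 and 170.0 in nondiabetic wound, 7.47 and 6.52 in diabetic marrow and 8.999 and 9.36 in nondiabetic marrow. Wound exceeded marrow in nondiabetic mice by 4.10 in the copy (SE 0.19, adjusted p = 1.02e-05) and by 4.08 in the gene (SE 0.06, adjusted p = 2.49e-07). The sequences above differ from each other at few positions, and 56.9% of the copy's 50-base words occurred once in the genome.

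Among the highest unnamed loci was the copy of Cap1, which encodes a cyclase-associated protein that acts on actin filaments, at chr14:41107554-41107755. It gave 454 and 479 FPKM in diabetic wound, 438.5 and 429 in nondiabetic wound, 2391 and 2352 in diabetic marrow and 1735 and 1986 in nondiabetic marrow. Cap1 itself gave 57.8 and 58.4 FPKM in diabetic wound, 51.5 and 54.8 in nondiabetic wound, 307 and 312 in diabetic marrow and 248.5 and 266.5 in nondiabetic marrow. Marrow was the higher tissue in both, with a nondiabetic difference of -2.10 in the copy (SE 0.11, adjusted p = 1.46e-05) and -2.26 in the gene (SE 0.05, adjusted p = 8.97e-07). Every 50-base word of this copy occurred once in the genome, but spliced transcripts were not searched for these words. Whether reads of Cap1 were counted at the copy was not tested. Of the 425 pairs, 93 had a copy with a higher mean FPKM than the gene, and the median copy stood at 46.2% of its gene.

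The diabetes effect was called different between wound and marrow in 34.5% of the 484 copies, against 47.5% of all loci. Among the 425 copies with a tested gene, 141 were called. The gene was called in the same direction in 105 of these, in the opposite direction in 4 and not called in 32. The Fdps copy below was chosen for its large difference of effects, and the Cd79a copy was not called (adjusted p = 0.0781). The copy of Fdps, the farnesyl diphosphate synthase of the cholesterol pathway, at chr6:6685733-6686271 gave 8.85 and 7.43 FPKM in diabetic wound, 4.14 and 4.98 in nondiabetic wound, 15.1 and 12.9 in diabetic marrow and 40.6 and 35.55 in nondiabetic marrow. Fdps gave 8.27 and 9.20 FPKM in diabetic wound, 3.52 and 5.505 in nondiabetic wound, 14.55 and 13.6 in diabetic marrow and 30.4 and 31.85 in nondiabetic marrow. Diabetic exceeded nondiabetic in wound and fell below it in marrow, in copy and gene alike: 0.72 (SE 0.13, adjusted p = 0.00904) and -1.38 (SE 0.13, adjusted p = 0.00132) in the copy, 0.84 (SE 0.17, adjusted p = 0.0127) and -1.09 (SE 0.17, adjusted p = 0.00651) in Fdps. A copy of Cd79a, a signalling chain of the B cell receptor, at chr12:53180089-53180599 was called lower in wound than marrow in both genotypes, with 1.28 and 0.925 FPKM in diabetic wound, 0.629 and 1.14 in nondiabetic wound, 43.0 and 39.2 in diabetic marrow and 21.6 and 25.4 in nondiabetic marrow. The 6 tested B cell markers, Cd79a among them, summed to 61.6 and 59.5 FPKM in diabetic marrow and 35.6 and 40.9 in nondiabetic marrow.

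**Figure D2:**
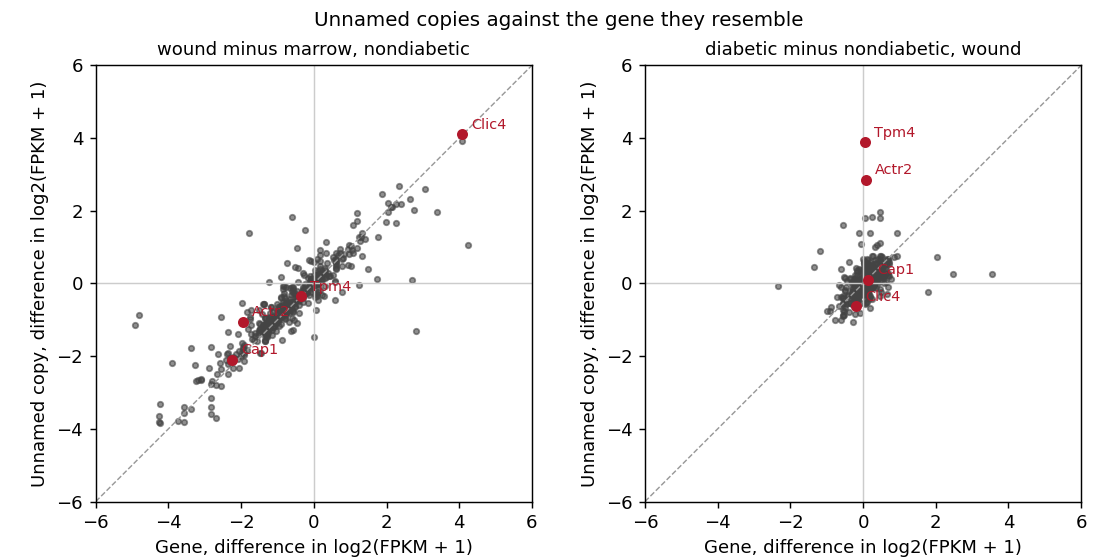
Difference in log2(FPKM + 1) of 425 unnamed copies (y axis) against that of the gene they resemble (x axis), for wound minus marrow in nondiabetic mice (left) and diabetic minus nondiabetic in wound (right); the dashed line marks equality and 4 pairs are named. On the left the points follow the line (r = 0.89), and on the right the copies of Tpm4 and Actr2 stand far above it.

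A pair of copies departed from their genes by genotype in both tissues. The copy matching Tpm4, a tropomyosin gene, lay at chr5:9164822-9165043, 3087 bp from Dmtf1, and matched only noncoding sequence of Tpm4. It gave 173 and 166 FPKM in diabetic wound, 13.97 and 7.95 in nondiabetic wound, 152.5 and 182.5 in diabetic marrow and 13.1 and 14.4 in nondiabetic marrow. Diabetic and nondiabetic pools did not overlap in either tissue, with differences of 3.88 in wound (SE 0.24, adjusted p = 0.000286) and 3.51 in marrow (SE 0.24, adjusted p = 0.000513). Tpm4 itself lay between 40.5 and 54.6 FPKM in all 8 libraries, with differences of 0.04 in wound (SE 0.03) and 0.03 in marrow (SE 0.03), neither called.

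The second was a copy of Actr2, a subunit of the actin-nucleating Arp2/3 complex, at chr7:7049211-7049567. It gave 10.25 and 10.85 FPKM in diabetic wound, 0.742 and 0.467 in nondiabetic wound, 47.5 and 54.55 in diabetic marrow and 2.14 and 2.49 in nondiabetic marrow. Diabetic exceeded nondiabetic by 2.85 in wound (SE 0.11, adjusted p = 9.56e-05) and by 3.97 in marrow (SE 0.11, adjusted p = 4.24e-05). A neighbouring copy of Actr2 at chr7:7049671-7049906, singled out after its values were seen, gave 107 and 94.4 FPKM in diabetic wound, 95.8 and 97.5 in nondiabetic wound, 424 and 470.3 in diabetic marrow and 336 and 339.8 in nondiabetic marrow. Its difference was 0.06 in wound (SE 0.08, adjusted p = 0.636) and 0.40 in marrow (SE 0.08, adjusted p = 0.0150), and Actr2 had 0.07 in wound (SE 0.08, adjusted p = 0.5003) and 0.23 in marrow (SE 0.08, adjusted p = 0.0638).

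**Figure D3:**
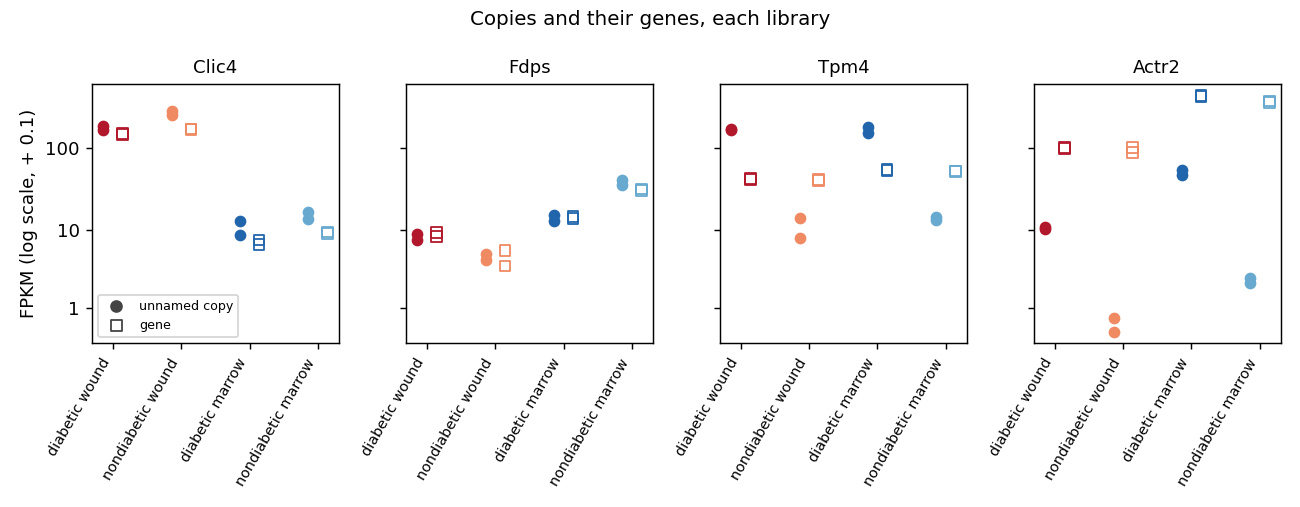
FPKM of each library (y axis, log scale after adding 0.1) in the 4 groups (x axis) for unnamed copies (filled circles) and the gene they resemble (open squares). The copies of Clic4 and Fdps follow their genes across groups, while the copy of Tpm4 reads 173 and 166 FPKM in diabetic wound against 13.97 and 7.95 in nondiabetic wound beside a level gene.

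Comparing diabetic with nondiabetic mice, 1135 unnamed loci differed in wound, 654 higher and 481 lower, against 42.1% of all loci called, 22.1% higher and 20% lower. In marrow 874 differed, 594 higher and 280 lower, against 36.5% of all loci, 16.4% higher and 20.1% lower. By at least 1, 279 were called in wound, 174 higher and 105 lower, where 7.13% of all loci were called, 2.95% higher and 4.18% lower. In marrow 268 were called by at least 1, 215 higher and 53 lower, where 6.33% of all loci were called, 4.59% higher and 1.74% lower. In marrow 68.0% of the called unnamed loci were higher in diabetic mice, and quantile scaling brought this share to 54.7% (434 higher and 359 lower). The diabetes effect in wound minus that in marrow was called in 1219 unnamed loci, 545 positive and 674 negative, against 47.5% of all loci; 44.7% were positive, and 55.4% after quantile scaling. By at least 1, 434 were called, 157 positive and 277 negative, where 13.4% of all loci were called, 4.29% positive and 9.10% negative.

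In both tissues 331 unnamed loci were called, 10.8% of the unnamed loci, against 20.4% of the named loci. They made up 29.2% of the unnamed loci called in wound and 37.9% of those called in marrow, against 46.6% and 52.7% for named loci. Of the 331, 151 were higher and 50 lower in diabetic mice in both tissues. The 3834 named loci called in both tissues had 536 higher and 894 lower. In opposite directions, 36 unnamed loci were higher in wound and lower in marrow, and 94 the reverse. Among named loci, 1444 were higher in wound and lower in marrow, and 960 the reverse. By at least 1, 43 unnamed loci were higher and 6 lower in both tissues, against 78 and 78 named loci. A single interval near Gda, described below, held 28 unnamed loci. Of these, 16 were called higher in diabetic wound and 27 in diabetic marrow, so the counts above are not of separate places.

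**Figure D4:**
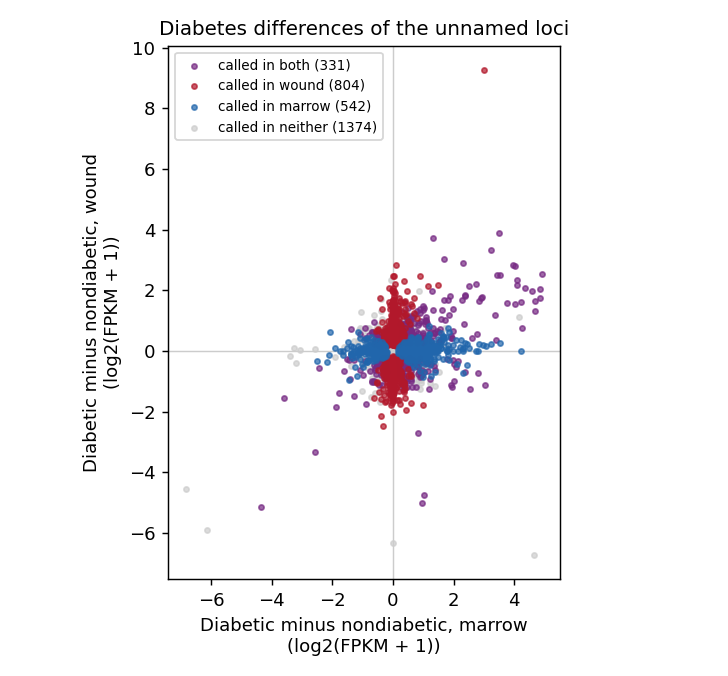
Diabetic minus nondiabetic difference in log2(FPKM + 1) in wound (y axis) against marrow (x axis) for 3051 unnamed loci, coloured by where the difference was called. Of the loci, 331 were called in both tissues, 804 in wound only, 542 in marrow only and 1374 in neither, and the single point above 9 is the locus on chromosome X described in the text.

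The tandem repeats shown above were the reverse of the Tpm4 and Actr2 copies. At chr8:48190749-48190955, 75042 bp from Stox2, both diabetic wound pools were listed at 0 FPKM and nondiabetic wound pools at 33.3 and 35.55, while diabetic marrow pools read 0 and 0.452 and nondiabetic marrow pools 15.9 and 35.0. At chr12:75985161-75985418, 423662 bp from Rhoj, FPKM was 3.705 and 3.73 in diabetic wound, 42.7 and 50.2 in nondiabetic wound, 6.67 and 4.21 in diabetic marrow and 27.55 and 47.9 in nondiabetic marrow. For the chr12 locus the difference was -3.33 in wound (SE 0.30, adjusted p = 0.000856) and -2.56 in marrow (SE 0.30, adjusted p = 0.00250); the chr8 locus was also called in both tissues (adjusted p = 0.000439 in wound and 0.000968 in marrow). These 2 loci held 17.0 and 19.8 units of GGAT or ATCC per 100 bases, against a median of 0.437 over the 2130 loci searched.

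Only 1 further searched locus held 10 or more such units per 100 bases, at chr19:24675204-24675456, 44812 bp from Pip5k1b. It gave 0.476 and 0.574 FPKM in diabetic wound, 2.04 and 1.95 in nondiabetic wound, 1.57 and 0.467 in diabetic marrow and 2.97 and 6.16 in nondiabetic marrow, so diabetic pools were below nondiabetic pools here too; the difference was called in marrow (-1.46, SE 0.36, adjusted p = 0.0283) and not in wound (-0.97, SE 0.36, adjusted p = 0.0824). Being rich in this unit was noticed after the values were seen. Besides these 3, only 2 searched loci were mainly low-complexity sequence. One of them, at chr12:8440190-8440427, gave 0.290 and 0.348 FPKM in diabetic wound, 0 and 0.393 in nondiabetic wound, 17.7 and 31.2 in diabetic marrow and 16.5 and 22.8 in nondiabetic marrow, and differed by tissue and not detectably by diabetes (difference in marrow 0.26, SE 0.31, adjusted p = 0.5855).

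Unnamed loci that shared sequence with each other formed 38 groups of 2 or more. The second largest, of 28 loci on 14 chromosomes, is described here. Loci were linked when they aligned over at least 50% of the shorter one and at least 100 bp with at least 85% identity; linked pairs of this group had a median identity of 94.6%. A median of 27.3% of their 50-base words occurred once in the genome, none matched a coding transcript elsewhere, and 13 lay more than 50000 bp from a named locus. Reads may be shared among them, so the 28 are not separate observations.

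The group was high in wound, and its order between genotypes turned with the tissue. Its summed FPKM was 1420 and 1431 in diabetic wound, 2507 and 2320 in nondiabetic wound, 584 and 572 in diabetic marrow and 121 and 113 in nondiabetic marrow. The 4 groups did not overlap. In the same order, sums were 731 and 757, 1031 and 1016, 327 and 343, and 84.0 and 92.6 in another 9 linked loci, which ranked alike by sums. Medians of the 9 were 1.76 and 2.89, 2.87 and 5.21, 1.59 and 1.97, and 0.565 and 0.685. By these, diabetic wound overlapped nondiabetic wound and diabetic marrow. In diabetic marrow 7 of the 9 were called higher and 1 lower. The lower one, chr19:24981059-24982984, gave 0.0446 and 0.0269 FPKM there and 11.4 and 11.4 in nondiabetic marrow. The largest group, 164 loci on 20 chromosomes, ranked otherwise by sums, with 321 and 323, 242 and 244, 380 and 391.5, and 223 and 249. Of the 28, wound was called higher in 26 in nondiabetic mice and lower in none, against 31.7% and 45.7% of all loci. In diabetic mice wound was called higher in 22 and lower in 2, against 32.8% and 46.9% of all loci. In marrow 17 were called higher in diabetic mice and none lower, against 16.4% and 20.1% of all loci. In wound 10 were called higher and 15 lower in diabetic mice, against 22.1% and 20% of all loci. The difference between the 2 diabetes effects was called in 22 of the 28, positive in 6 and negative in 16, against 47.5% of all loci.

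Within this group the largest differences came from 3 adjoining loci at chr13:55287640-55289878, the nearest 17849 bp from Fgfr4. The first of them, chr13:55287640-55288440, gave 2.34 and 3.82 FPKM in diabetic wound, 130.2 and 130.2 in nondiabetic wound, 2.02 and 2.06 in diabetic marrow and 0.578 and 0.512 in nondiabetic marrow. Only nondiabetic wound was high, with a diabetes difference of -5.03 in wound (SE 0.17, adjusted p = 6.14e-05) and 0.97 in marrow (SE 0.17, adjusted p = 0.00851). The third, chr13:55289172-55289878, was also raised in diabetic wound, with 41.8 and 41.8 FPKM there, 295.5 and 268 in nondiabetic wound, 2.33 and 2.71 in diabetic marrow and 1.15 and 0.872 in nondiabetic marrow.

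Other members of the group were high in 3 of the groups or in the opposite genotype. At chr11:86627236-86628271, 1916 bp from Dhx40, FPKM was 254 and 249 in diabetic wound, 447 and 390.3 in nondiabetic wound, 148.5 and 144 in diabetic marrow and 19.7 and 20.2 in nondiabetic marrow. At chr3:69459357-69459574, 66322 bp from Nmd3, it was 52.8 and 67.9 in diabetic wound, 4.18 and 3.16 in nondiabetic wound, 1.27 and 3.40 in diabetic marrow and 0 and 0.587 in nondiabetic marrow. The diabetes difference in wound was -0.73 for the first (SE 0.07, adjusted p = 0.00115) and 3.71 for the second (SE 0.38, adjusted p = 0.00131).

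**Figure D5:**
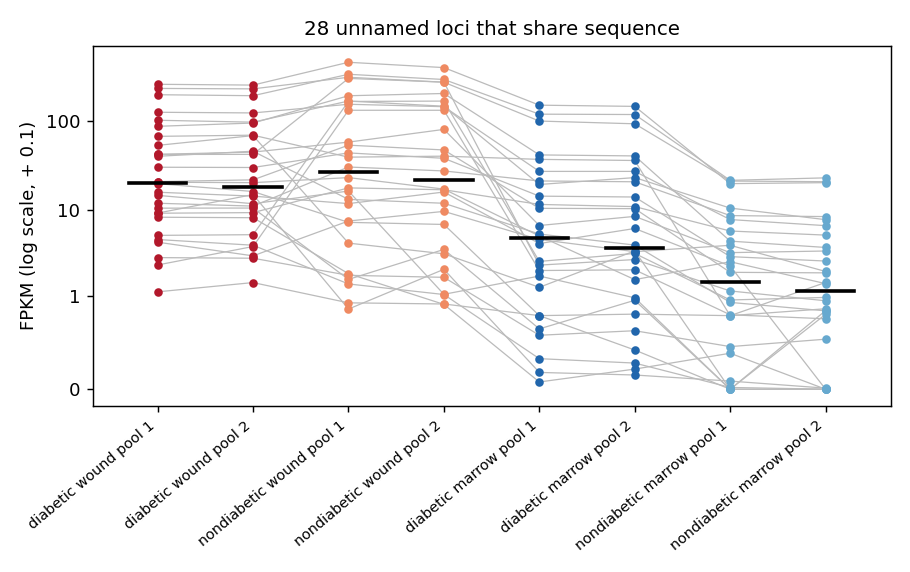
FPKM (y axis, log scale after adding 0.1) of the 28 unnamed loci that share sequence, in each of the 8 libraries (x axis); each line is a locus and black bars are medians. The medians are 20.02 and 18.1 in diabetic wound, 26.6 and 22.2 in nondiabetic wound, 4.82 and 3.69 in diabetic marrow and 1.54 and 1.19 in nondiabetic marrow.

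In marrow many of the large rises with diabetes came from a single interval, chr19:21384539-21458838, 5348 bp from Gda, the guanine deaminase gene. It held 28 of the unnamed loci. Median FPKM over the 28 was 0.667 and 0.544 in diabetic wound, 0.137 and 0.144 in nondiabetic wound, 9.62 and 10.2 in diabetic marrow and 0.229 and 0.231 in nondiabetic marrow. Of the 28, 27 were called higher in diabetic marrow, with differences from 0.98 to 4.92, against 16.4% of all loci. In diabetic wound 16 were called higher, against 22.1% of all loci. All 28 exceeded 1 FPKM in both diabetic marrow pools, so the FPKM criterion itself favoured loci high in that group. Where 46.9% of all loci were called lower in diabetic wound than in diabetic marrow, 27 of the 28 were as well. As they share 1 interval, they count as 1 place. The nearest tested named locus was Zfand5, 23351 bp away. It was also higher in diabetic marrow, with 158.8 and 131.1 FPKM against 39.8 and 42.75 in nondiabetic marrow. The 6 tested erythroid markers were higher there too, as given above, and the part of either was not tested.

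Among unnamed loci inside immunoglobulin gene clusters, several were higher in diabetic than nondiabetic marrow. In the kappa light chain cluster, an unnamed locus on the interval chr6:67797406-68253375 gave 54.2 and 62.1 FPKM in diabetic wound, 14.8 and 10.2 in nondiabetic wound, 285 and 282 in diabetic marrow and 46.0 and 51.9 in nondiabetic marrow. Diabetes differences were 2.15 in wound (SE 0.17, adjusted p = 0.000579) and 2.51 in marrow (SE 0.17, adjusted p = 0.000487). The locus named for variable segments on the same interval had the other order, with 56.0 and 54.5 FPKM in diabetic marrow and 127 and 144 in nondiabetic marrow. On the heavy chain interval chr12:114496860-114667728, an unnamed locus gave 0.499 and 0.476 FPKM in diabetic wound, 0.4285 and 0.273 in nondiabetic wound, 33.7 and 34.4 in diabetic marrow and 6.39 and 6.83 in nondiabetic marrow, while the named locus of that interval, which includes Ighm, gave 229.7 and 239 in diabetic marrow and 415 and 419.7 in nondiabetic marrow. On a further heavy chain interval, chr12:114811325-115391937, the longest unnamed locus gave 10.3 and 9.74 FPKM in diabetic marrow and 5.09 and 5.83 in nondiabetic marrow. The named locus of that interval was not called there, with 34.45 and 35.9 FPKM against 31.6 and 35.95. On another, chr12:116698938-116996706, 5 of 9 unnamed loci were called higher in diabetic marrow and none lower. Over all loci, 16.4% were called higher and 20.1% lower. As the 9 share 1 interval, they count as 1 place. The 6 tested B cell markers were also higher in diabetic marrow, at 61.6 and 59.5 FPKM summed, against 35.6 and 40.9 in nondiabetic marrow, and their part was not tested.

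Wound loci that were higher in diabetic mice included several with almost no marrow signal. On the interval of Pf4, the platelet factor 4 chemokine gene, an unnamed locus at chr5:91200579-91203248 gave 13.5 and 13.9 FPKM in diabetic wound and 1.55 and 1.75 in nondiabetic wound, and all 4 marrow pools were listed at 0. The diabetes difference in wound was 2.47 (SE 0.06, adjusted p = 3.53e-05). Pf4 itself gave 280.4 and 272.5 FPKM in diabetic wound, 65.4 and 73.9 in nondiabetic wound, 0.532 and 0.454 in diabetic marrow and 4.70 and 4.597 in nondiabetic marrow. Without strand information in the table, reads of Pf4 and of this locus cannot be told apart.

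The locus just upstream of Znrf2, a ubiquitin ligase gene, at chr6:54763828-54766706 gave 8.05 and 8.01 FPKM in diabetic wound, 0.850 and 1.08 in nondiabetic wound, 0.2225 and 0.269 in diabetic marrow and 0.2065 and 0.188 in nondiabetic marrow. Its difference in wound was 2.20 (SE 0.07, adjusted p = 6.14e-05), while Znrf2 itself lay between 8.845 and 11.1 FPKM in all 8 libraries. At chr9:120741452-120753983, 88536 bp from Ctnnb1, FPKM was 19.2 and 17.4 in diabetic wound, 1.69 and 1.66 in nondiabetic wound, 0.159 and 0.156 in diabetic marrow and 0.0117 and 0.173 in nondiabetic marrow, a difference in wound of 2.85 (SE 0.09, adjusted p = 5.79e-05). Summed keratinocyte markers were also higher in diabetic wound, as given above, and their part was not tested.

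Some unnamed loci were listed at 0 in most libraries or stood out in a single one. At chrX:111075908-111077019 FPKM was 702 and 536 in diabetic wound, 0 and 0 in nondiabetic wound, 62.6 and 0 in diabetic marrow and 0 and 0 in nondiabetic marrow. This locus was called for diabetes in wound (adjusted p = 0.0114) but not when any 1 wound pool was left out, although its fitted difference kept its direction and changed little; no value is given against pools listed at 0. At chr16:17222395-17222609, FPKM was 709.8 and 754 in diabetic wound, 798 and 655 in nondiabetic wound, 589.7 and 601 in diabetic marrow and 15481 and 1629 in nondiabetic marrow. Lars2, a mitochondrial leucyl-tRNA synthetase gene whose transcript it matches, was high in the same library, with 29.5 and 32.3 FPKM in diabetic marrow and 734 and 75.04 in nondiabetic marrow. The diabetes difference of the unnamed locus in marrow was -3.07 (SE 0.99, adjusted p = 0.0622) with both pools, and was called without nondiabetic marrow pool 1 (-1.45) or without pool 2 (-4.70). Nondiabetic marrow pool 1 stood at least 5 times above every other library, at 100 FPKM or more, in 5 unnamed loci, nondiabetic wound pool 2 did so in 2, and diabetic marrow pool 2 and nondiabetic marrow pool 2 in 1 each. At chr7:17232598-17245465 the pools read 0 and 0 in diabetic wound, 3621 and 0 in nondiabetic wound, 0 and 5088 in diabetic marrow and 4182 and 6165 in nondiabetic marrow, so a value of 0 there may be a failed estimate, and no difference is given. Between the pools of a group, 9 to 13 of the 3051 loci differed by 2 or more on the log2 scale.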

How the data were processed

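RNA of 8 pools of Gr-1+ cells was sequenced, 2 pools for each of 4 groups, with 1 lane per pool per the labels' protocols. The authors deposited FPKM values for assembled loci, with a status for each library. TopHat, Cufflinks and the build mm9 are named in the submitters' processing notes. Their versions and settings, the treatment of reads that map to several places and the strand are not given in the sources used here. Depth is therefore unknown, and no counts were used. Whether interval starts are counted from 0 or 1 is not stated, so intervals are printed as deposited, while printed sequences are counted from 1.

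Values were transformed to log2(FPKM + 1) and fitted with limma 3.58.1 in R 4.3.3, with 4 group means and a variance trend, over 22703 loci with status OK and 1 FPKM or more in at least 2 libraries. P-values were adjusted by the Benjamini-Hochberg method over all 22703, with a threshold of 0.05. The fit was checked on simulated data. Loci of up to 5000 bp were aligned to GENCODE vM1 transcripts and to each other with blastn 2.17.0. A low-complexity locus had at least 50% of its 100-base windows holding at most 40 distinct 6-base words.

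Loci were named in the text if they had one of the 8 largest positive or negative differences of a comparison, the 8 highest levels, the 3 greatest lengths or distances, one of the 4 largest shared diabetes differences, or lay beside a listed gene; others are said to be singled out. The members and lists were chosen with earlier results of these data known. Loci on chromosome 18 enter the counts and are not described singly. Alternatives changed the pseudocount, the filter, the scaling, the fit, the neighbours, the length minimum and the pools included, and one added after seeing the data left out copies.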

Additional observations from a re-analysis of the deposited data

Results flagged for a closer look

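In 1219 unnamed loci (40%) the diabetes effect differed between wound and marrow by the interaction term of the limma fit, against 47.5% of all loci tested. Those with the largest positive and negative values among loci of sufficient level are given here as the effect in wound minus the effect in marrow, on the log2(FPKM + 1) scale. Positive values were found for XLOC_036584 near Ctnnb1 (2.76), XLOC_028757 on the Pf4 interval (2.47), XLOC_008551 (2.43), XLOC_024046 near Nmd3 (2.38), XLOC_011445 near Ghitm (2.18), XLOC_030904 near Znrf2 (2.15), the Fdps copy XLOC_030508 (2.10) and XLOC_010702 (2.06). Negative values were found for XLOC_010552 (-6.0) and XLOC_010553 (-5.75) near Fgfr4, XLOC_034237 near Poteg (-4.24), XLOC_010482 (-4.15), XLOC_021835 (-3.81), XLOC_007246 near Dhx40 (-3.55), XLOC_010554 near Fgfr4 (-3.53) and XLOC_001156 (-3.49).

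Of these, XLOC_008551, XLOC_024046, XLOC_010702, XLOC_010552, XLOC_010553, XLOC_010482, XLOC_007246, XLOC_010554 and XLOC_001156 belong to the group of 28 loci that share sequence, so they are not separate observations. XLOC_021835 belongs to the other group of 9 linked loci described above, whose summed FPKM ranked like that of the 28. It lies near Hnrnpa3, as do XLOC_021836 and XLOC_021837 of the 28. Whether XLOC_021835 shares reads with these loci was not tested, so it may not be a separate observation either. XLOC_034237 was listed at 0 in both wound groups and in nondiabetic marrow, and had 12.7 and 25.01 FPKM in diabetic marrow. The call of XLOC_024046 was lost without diabetic wound pool 2 (2.20), without nondiabetic wound pool 2 (2.22) and with a pseudocount of 0.1 (0.94).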

How the results depend on the processing

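Counts of changed unnamed loci are given for wound against marrow in nondiabetic and in diabetic mice, diabetes in wound, diabetes in marrow, and the difference of the diabetes effects, in this order. With no FPKM filter they were 5845, 6659, 2731, 1475 and 2526. With 5 FPKM or more in at least 2 libraries they were 566, 586, 322, 295 and 349, and with a mean of 1 FPKM or more 1147, 1186, 567, 509 and 596; fewer loci enter under both. For differences of at least 1, a pseudocount of 5 gave 263, 290, 45, 68 and 85, the filter of 5 FPKM gave 405, 397, 98, 102 and 149, and the mean filter gave 796, 808, 162, 169 and 253. A pseudocount of 0.1 gave 2044 in nondiabetic mice between tissues, 595 for diabetes in wound, 486 in marrow and 674 for the difference of effects. Loci of at least 500 bp gave 145 in wound, 173 in marrow and 268 for the difference of effects. With tested named loci as the only neighbours, 815 loci lay 1 to 5000 bp and 829 over 50000 bp away, both outside the exact binomial interval of the reported share. The other 201 values stayed within 1.5 times, or for positions within that interval. Leaving out each pool in turn gave 2029 to 2237, 2147 to 2359, 862 to 1082, 616 to 796 and 958 to 1088, and by at least 1 gave 1240 to 1285, 1379 to 1439, 256 to 273, 246 to 280 and 378 to 414. Of the named loci, XLOC_008133 had a marrow diabetes difference of 0.0 without nondiabetic marrow replicate 2 and -13.65 without replicate 1, the highest and lowest of its values. Calls were lost under 1 or more alternatives in XLOC_009818, XLOC_038450, XLOC_007275, XLOC_013632, XLOC_037708, XLOC_023150 and XLOC_024046, and each kept its direction. XLOC_007275 stayed at -2.48 with the 2 compared groups alone. XLOC_013632 lay between -1.37 and -1.66 and XLOC_023150 between -2.12 and -3.97 where the call was lost. XLOC_009818, XLOC_037708 and XLOC_038450 are set against pools listed at 0.

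Deviations of same-numbered pools had r between -0.09 and 0.09 over all loci and between -0.33 and 0.04 over the unnamed loci. Technical noise also enters these deviations, so they cannot tell whether same-numbered wound and marrow pools came from the same mice. With the pool number as a replicate block, the counts were 2207, 2347, 1079, 810 and 1151. With the pool within genotype as the replicate block, the counts between tissues were 2179 and 2315, and the count for the difference of effects was 960.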
